A study of Mus musculus with 16 samples.

Results

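The genes described here are the core of the ATF4 and CHOP stress response: the transcription factors Atf4, Atf5, Ddit3 (which encodes CHOP) and Cebpb, the chromatin-associated cofactor Nupr1, the feedback genes Trib3, Ppp1r15a and Sesn2, and the enzyme genes Chac1 and Asns. They were chosen by gene symbol, with earlier results of these data known. They are 10 of the 19505 genes with a named probe set on the array, and all 10 were measured. Ddit3 had 2 probe sets and the other genes 1 each, so that 11 of 22206 tested probe sets were involved. For Ddit3 the probe set with the higher mean over the 16 arrays was used, and the other is given beside it. After hypoxia/reperfusion (H/R) without added vitamin B12, 8 of the 10 genes rose and 0 fell, beside 8.11% and 9.54% of all probe sets. With B12 in both arms 7 rose and 0 fell, beside 9.04% and 9.61%. Nupr1 and Ppp1r15a passed the test in neither direction, and the signal of Ppp1r15a was too low for a change to be seen reliably.

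Cells under several kinds of stress, among them amino acid shortage and misfolded protein in the endoplasmic reticulum, phosphorylate the translation initiation factor eIF2. This slows protein synthesis in general but favours translation of the ATF4 message, and ATF4 then induces genes of amino acid supply, aminoacyl-tRNA synthesis and redox balance. CHOP is a later partner of ATF4 and is known for its part in cell death when stress persists, and the tubule of the injured kidney is one of the tissues where the pathway has been studied. The arrays report RNA and not ATF4 protein or eIF2 phosphorylation.

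BU.MPT is a conditionally immortalized mouse proximal tubule cell line, and all samples come from this single line, grown at 39 °C without interferon gamma. The series holds 16 arrays in 4 groups of 4 and gives log2 signal per probe set. Control cells were kept at 21% oxygen in medium containing glucose at 4.5 g/L and 10% fetal bovine serum, called normal culture here. Control+B12 cells were cultured likewise with 0.3 µM cyanocobalamin, a form of vitamin B12. H/R cells were held for 3 h at approximately 1% oxygen in medium lacking glucose and serum, and then for 1 h in normal culture. H/R+B12 cells went through the same steps with 0.3 µM cyanocobalamin. Hypoxia therefore came together with glucose and serum withdrawal and their return, and these cannot be told apart. The titles of all B12 samples read B12, although the descriptions of replicates 2 to 4 count upward to B13, B14 and B15. Because no label says that replicates were independent cultures, every p-value refers to the spread among these arrays, which may be technical. With 4 arrays in each group, precision is limited.

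Array medians over the tested probe sets ran from 5.21 to 5.37, and medians of the negative control features from 5.72 to 6.23. The 95th percentile of those features was 10.06 to 10.56, so their medians mark the middle of the background and not its upper edge. Of 14 proximal tubule markers measured, 12 had group means below 6.23 both in control and in H/R, among them the defining transporters Slc34a1 (3.41 in control), Slc5a2 (3.34) and Slc22a6 (2.86) and the endocytic receptors Lrp2 (3.34) and Cubn (3.52). The water channel Aqp1 (14.21) and the bicarbonate transporter Slc4a4 (9.53) were above that level. Of 9 renal epithelial genes, Epcam lay below 6.23 in both groups (3.17 in control) and Cdh1 in control (6.10), while the other 7 were brighter, among them Pax8 (15.91), Pax2 (14.89) and Cdh16 (14.74). After H/R without B12, Slc4a4 rose by 2.22 ± 0.21 and Aqp1 fell by 0.79 ± 0.16 on the log2 scale, and of the renal epithelial genes Cldn1 (1.01 ± 0.12), Tjp1 (0.82 ± 0.14) and Krt18 (0.82 ± 0.22) rose and Pax2 (-0.66 ± 0.14) fell, all by limma at an adjusted p under 0.05. Of the markers of other cell types, 6 of 7 fibroblast and pericyte genes, 6 of 6 endothelial genes and 4 of 5 leukocyte genes also lay below 6.23 in control and H/R. By limma with Benjamini-Hochberg adjustment, 0 genes of these last 3 lists passed after H/R without B12. With B12 in both arms 1 did, the leukocyte gene Ptprc (limma adjusted p = 0.0365), whose means of 3.34 in control+B12 and 4.26 in H/R+B12 are both under the lowest median of the negative control features, so that no size is given. The part of these marker changes in the results below was not tested. The arrays hold bulk RNA, so that fewer cells of a type and less RNA per cell cannot be told apart.

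To show what the upstream regions of these genes hold, the stretch from 250 bases before the annotated gene start to 30 bases after it is printed for the 4 genes with a match to the C/EBP-ATF response element, the composite site through which ATF4 and C/EBP partners are known to act. The letters searched were TGATGNAA on both strands, over a window of 300 bases that ends 50 bases after the start, in RefSeq sequence of build GRCm38.p6 (all 10 genes matched, in 11 windows since Atf5 has 2). Capitals mark the match, and each sequence runs 5′ to 3′ along the gene.
Asns, minus strand, chr6:7693180-7693459: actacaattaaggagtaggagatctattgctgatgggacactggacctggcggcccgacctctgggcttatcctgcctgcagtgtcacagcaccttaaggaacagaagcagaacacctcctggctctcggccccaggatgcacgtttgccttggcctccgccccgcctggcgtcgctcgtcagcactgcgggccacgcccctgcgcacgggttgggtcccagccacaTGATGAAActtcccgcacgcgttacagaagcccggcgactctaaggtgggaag
Trib3, minus strand, chr2:152344031-152344310: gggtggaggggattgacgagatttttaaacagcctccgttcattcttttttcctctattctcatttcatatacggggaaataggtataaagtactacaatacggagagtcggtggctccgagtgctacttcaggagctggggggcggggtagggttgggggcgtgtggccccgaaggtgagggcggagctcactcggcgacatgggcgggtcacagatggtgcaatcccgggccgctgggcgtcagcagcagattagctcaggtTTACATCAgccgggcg
Chac1, plus strand, chr2:119350992-119351271: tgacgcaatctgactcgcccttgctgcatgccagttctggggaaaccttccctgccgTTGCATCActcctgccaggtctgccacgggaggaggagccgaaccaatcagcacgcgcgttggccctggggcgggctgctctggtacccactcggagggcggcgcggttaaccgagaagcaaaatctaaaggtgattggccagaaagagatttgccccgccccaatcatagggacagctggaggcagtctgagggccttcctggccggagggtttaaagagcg
Nupr1, minus strand, chr7:126625441-126625720: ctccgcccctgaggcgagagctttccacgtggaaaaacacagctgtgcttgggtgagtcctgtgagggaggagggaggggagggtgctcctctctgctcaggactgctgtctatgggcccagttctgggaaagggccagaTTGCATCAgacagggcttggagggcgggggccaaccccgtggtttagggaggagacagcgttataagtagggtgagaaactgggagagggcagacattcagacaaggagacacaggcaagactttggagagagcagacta

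In Asns the match lies on the gene's own strand, from 23 to 16 bases before the start (chr6:7693225-7693232). Chac1 has it on the opposite strand from 193 to 186 bases before the start (chr2:119351049-119351056), and Nupr1, also on the opposite strand, from 110 to 103 bases before it (chr7:126625573-126625580). The printed letters of the match are the same in Chac1 and Nupr1, TTGCATCA. In Trib3 the match is inside the transcribed part, from base 15 to base 22 (chr2:152344039-152344046), on the opposite strand. The motif is present in 3.97% of all 32851 windows of this length and, counted by gene, in 4.51% of 27025 genes, beside 4 of these 10. A cAMP response element, TGACGTCA, is its own reverse complement and shares no match with the first motif in these windows. It was found in Ppp1r15a from 12 to 5 bases before the start (chr7:45526273-45526280). Counted by gene, it is present in 1 of these 10 and in 2.03% of 27025 genes, and counted by window in 1.79% of all windows. A match is a description of these letters, not of a bound site. Asns, Trib3 and Chac1 rose after H/R and Nupr1 passed no test, while Atf4, Atf5, Ddit3, Cebpb and Sesn2 rose without either motif in this window.

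Which of the 10 genes responded to H/R was asked first without B12. Between control and H/R, 8 of 10 rose and 0 fell by limma with Benjamini-Hochberg adjustment over 22206 probe sets, where 8.11% of all probe sets rose and 9.54% fell. The median log2 difference was 1.36 over the 10 genes and -0.02 over all probe sets. In the same 8 genes all 4 H/R arrays lay above all 4 control arrays, which held for 9.88% of all probe sets. Among the genes that rose from a control mean above the negative control medians, differences ran from 0.79 in Atf5 to 1.75 in Asns. Trib3 and Chac1 had higher fitted differences, from control means within the range of those medians. Of the genes that rose, only Atf4 and Asns had control means above 10.56, the highest 95th percentile of the negative control features.

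**Figure D1:**
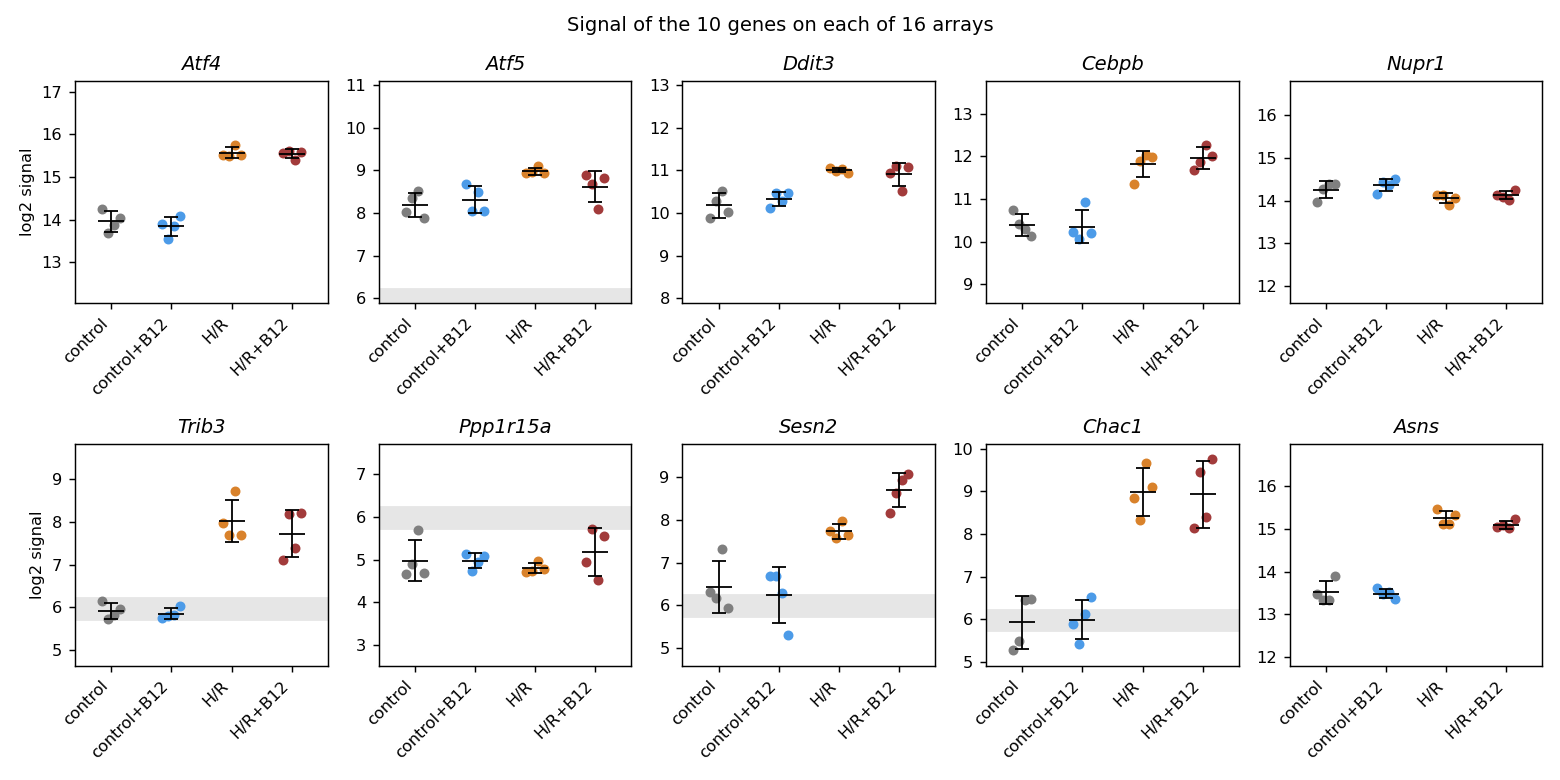
Log2 signal (vertical axis) of each of the 10 genes on each of the 16 arrays (points, by group on the horizontal axis), with the group mean and SD (bars, n = 4) and, in grey, the range of the array medians of negative control features, 5.72 to 6.23. Each panel spans the same number of log2 units. In Atf4, Cebpb, Trib3, Sesn2, Chac1 and Asns all 8 H/R arrays lie above all 8 control arrays, and Ppp1r15a stays near or below the grey band.

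The transcription factors come first. Atf4, the factor at the head of the pathway, had log2 signals of 14.26, 13.68, 13.86 and 14.03 in control arrays 1 to 4 and of 15.51, 15.50, 15.75 and 15.52 in H/R. The lowest H/R array was thus above the highest control array by more than the whole spread of either group. Atf4 rose by 1.61 ± 0.15 (SE, n = 4 against 4; limma adjusted p = 1.84e-06), or 3.05-fold with a 95% interval from 2.45 to 3.81. Its group means exceeded those of 95.4% of probe sets in control and 98.5% in H/R.

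Ddit3 encodes CHOP, a C/EBP-family partner of ATF4. Its arrays read 9.89, 10.29, 10.53 and 10.01 in control and 11.05, 10.99, 11.04 and 10.94 in H/R. The H/R arrays were close together (SD 0.05) and above the control arrays (SD 0.29). Ddit3 rose by 0.82 ± 0.16 (limma adjusted p = 0.00185), or 1.77-fold with an interval of 1.39 to 2.25. The gene's other probe set read 8.91, 9.20, 9.19 and 8.99 in control and 10.32, 9.77, 10.05 and 9.91 in H/R, and it rose by 0.94 ± 0.18 (limma adjusted p = 0.00147). Both probe sets therefore gave the same direction and about the same size.

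Atf5, a relative of ATF4 whose translation is also favoured under eIF2 phosphorylation, had signals of 8.01, 8.35, 8.50 and 7.89 in control and of 8.93, 8.96, 9.09 and 8.94 in H/R. The groups did not overlap, and Atf5 rose by 0.79 ± 0.20 (limma adjusted p = 0.0102). Cebpb, a C/EBP factor that pairs with ATF4 and is also an acute-phase regulator, read 10.73, 10.40, 10.29 and 10.12 in control and 11.36, 11.89, 12.03 and 11.97 in H/R. Array 1 was the highest of the control arrays and the lowest of the H/R arrays, yet a clear gap remained. Cebpb rose by 1.43 ± 0.21 (limma adjusted p = 0.000149), 2.69-fold with an interval of 1.97 to 3.66.

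Nupr1, a small stress-induced nuclear protein that acts as a cofactor, was already bright. Its signals were 13.98, 14.27, 14.39 and 14.39 in control and 14.14, 14.14, 13.90 and 14.05 in H/R. The groups overlapped, with the difference at -0.20 ± 0.13 (limma adjusted p = 0.383) and an interval from -0.48 to 0.08. A rise of the size seen in Atf5 lies outside that interval. In control, the mean of Nupr1 exceeded that of 96.2% of probe sets.

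Among the feedback genes, Trib3 encodes a pseudokinase that binds ATF4 and CHOP and restrains them. It read 6.16, 5.74, 5.82 and 5.97 in control and 7.98, 7.70, 8.74 and 7.69 in H/R. Control values sat within the range of the negative control medians, so the size of the change is uncertain, while H/R values were all above it. The difference was 2.11 ± 0.26 (limma adjusted p = 2.34e-05), or 4.30-fold with an interval of 2.96 to 6.27.

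Sesn2 encodes sestrin 2, a leucine sensor that holds back mTORC1. Its control arrays read 6.31, 6.17, 7.31 and 5.93, with array 3 standing above the others, and its H/R arrays 7.74, 7.58, 7.96 and 7.64. Sesn2 rose by 1.30 ± 0.32 (limma adjusted p = 0.00816). Left without control array 3 the difference was 1.59, the highest over the alternatives run, of which the lowest was 1.13.

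Ppp1r15a encodes GADD34, the inducible phosphatase subunit that removes the phosphate from eIF2. Its control arrays read 4.66, 4.90, 5.69 and 4.68 and its H/R arrays 4.70, 4.73, 4.96 and 4.79. The groups overlapped fully, with a difference of -0.19 ± 0.25 (limma adjusted p = 0.722; interval -0.72 to 0.35). All 4 group means of this probe set, 4.80 to 5.19, were under the lowest median of the negative control features, so a change of the transcript may not be seen by it.

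Of the enzymes, Chac1 degrades glutathione and is a target of the ATF4 and CHOP axis. It read 5.27, 5.50, 6.45 and 6.48 in control and 8.85, 8.33, 9.67 and 9.11 in H/R. Although both groups were scattered, the gap between them was wider than either spread. Chac1 rose by 3.06 ± 0.39 (limma adjusted p = 3.74e-05), 8.36-fold with an interval of 4.71 to 14.8, and its control mean, 5.93, lay within the range of the negative control medians, so the size is uncertain. Asns, the asparagine synthetase, had signals of 13.48, 13.33, 13.34 and 13.90 in control and of 15.46, 15.12, 15.11 and 15.33 in H/R. Its rise of 1.75 ± 0.15 was measured well above background and had the smallest adjusted p of the 10 genes (limma adjusted p = 5.59e-07), with a fold of 3.35 and an interval of 2.71 to 4.15.

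The same question was put to the cells that had B12 in both arms, which share no array with the first comparison, although 1 fit over all 16 arrays gave the spread for both. Between control+B12 and H/R+B12, 7 of 10 genes rose and 0 fell by limma, against 9.04% and 9.61% of all probe sets. Medians were 1.61 over the 10 genes and -0.04 over all probe sets. In those 7 genes all 4 H/R+B12 arrays were above all 4 control+B12 arrays, as in 10.3% of all probe sets. Counting both comparisons together, all 8 H/R arrays were above all 8 control arrays in 6 genes, Atf4, Cebpb, Trib3, Sesn2, Chac1 and Asns, and in 6.18% of all probe sets.

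**Figure D2:**
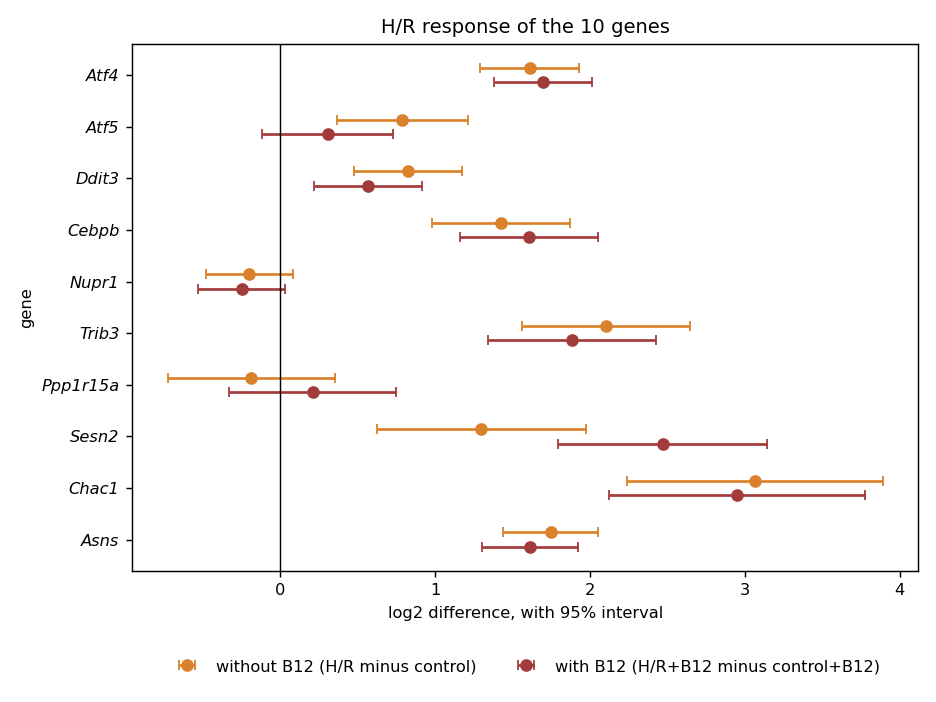
Log2 difference (horizontal axis) of the 10 genes between H/R and control arrays, without B12 (orange) and with B12 in both arms (red); points are estimates from limma with 95% intervals, n = 4 against 4. Intervals of Nupr1 and Ppp1r15a cross 0 in both comparisons, and that of Atf5 crosses 0 in the cells with B12 alone.

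Atf4 read 13.89, 13.54, 13.86 and 14.08 in control+B12 and 15.56, 15.62, 15.39 and 15.59 in H/R+B12, a rise of 1.70 ± 0.15 (limma adjusted p = 9.45e-07). Asns was at 13.61, 13.47, 13.51 and 13.35 and then at 15.05, 15.10, 15.01 and 15.22, a rise of 1.61 ± 0.15 (adjusted p = 1.04e-06 by limma). Cebpb read 10.23, 10.05, 10.92 and 10.19 and then 11.68, 11.86, 12.27 and 12.01, and it rose by 1.61 ± 0.21 (limma adjusted p = 4.85e-05). These 3 genes repeated the size seen without B12 to within 0.2 log2 units.

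Chac1 had signals of 5.89, 5.41, 6.13 and 6.52 in control+B12 and of 8.14, 9.45, 8.40 and 9.76 in H/R+B12, and it rose by 2.95 ± 0.39 (limma adjusted p = 5.10e-05). Trib3 went from 5.74, 5.80, 5.82 and 6.04 to 7.12, 8.19, 7.40 and 8.21, a rise of 1.88 ± 0.26 (limma adjusted p = 6.53e-05). In both genes H/R+B12 arrays 2 and 4 were high and arrays 1 and 3 low, with the lowest still above every control+B12 array. The rise of Sesn2, 2.47 ± 0.32 (limma adjusted p = 3.96e-05), was the second largest, from 6.68, 6.67, 6.28 and 5.30 to 8.17, 8.63, 8.94 and 9.07. In control+B12 the means of Trib3 (5.85) and Chac1 (5.99) lay within the range of the negative control medians. That of Sesn2 (6.23) lay at its upper edge, so the sizes and the order of these 3 rises are uncertain.

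Ddit3 read 10.13, 10.47, 10.28 and 10.48 in control+B12 and 10.93, 11.10, 10.52 and 11.08 in H/R+B12. Its rise of 0.57 ± 0.16 passed by a small margin (limma adjusted p = 0.0219), and the call was lost when control+B12 array 1 (0.0687) or 3 (0.0521) or H/R+B12 array 2 (0.0695) or 4 (0.0653) was left out, and when the other 2 groups were dropped from the fit (0.0536). The other Ddit3 probe set rose by 0.76 ± 0.18 (limma adjusted p = 0.00694). Atf5 read 8.67, 8.05, 8.50 and 8.04 and then 8.89, 8.68, 8.09 and 8.82. Its groups overlapped, with a difference of 0.31 ± 0.20 (limma adjusted p = 0.347; interval -0.12 to 0.73).

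Nupr1 was at 14.16, 14.44, 14.36 and 14.51 in control+B12 and at 14.13, 14.09, 14.02 and 14.24 in H/R+B12, a difference of -0.25 ± 0.13 (limma adjusted p = 0.240). Ppp1r15a was at 5.14, 4.74, 4.94 and 5.08 and at 4.95, 5.72, 4.52 and 5.55, a difference of 0.21 ± 0.25 (limma adjusted p = 0.654). As without B12, neither gene passed the test.

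Whether B12 changed these genes was asked in normal culture, in H/R cells, over both together, and as an interaction. By limma with Benjamini-Hochberg adjustment, 0 of the 10 genes and 0% of all probe sets passed in each of these 4 comparisons. At an unadjusted p under 0.05, 1280 of 22206 probe sets (5.76%) passed in normal culture, 1010 (4.55%) in H/R cells, 1223 (5.51%) over both and 1071 (4.82%) for the interaction. Of the 10 genes 0 did so in normal culture and over both, and 1, Sesn2, in H/R cells and for the interaction.

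**Figure D3:**
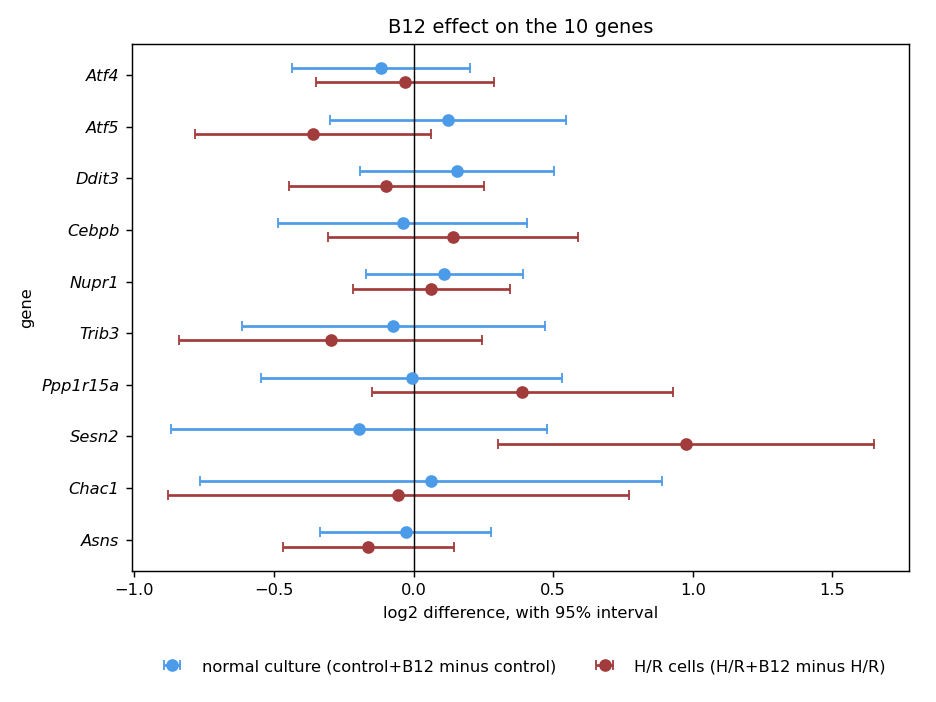
Log2 difference (horizontal axis) of the 10 genes with B12 minus without B12, in normal culture (blue) and in H/R cells (red); points are limma estimates with 95% intervals, n = 4 against 4. The interval of Sesn2 in H/R cells, 0.30 to 1.65, is the only one that leaves out 0, and no difference passed the adjusted threshold.

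Sesn2 was higher in H/R+B12 than in H/R by 0.97 ± 0.32, with means of 8.70 and 7.73. All 4 H/R+B12 arrays (8.17 to 9.07) lay above all 4 H/R arrays (7.58 to 7.96), which was the case for 1.38% of all probe sets. The unadjusted p was 0.00733 by limma and the adjusted p 1.00, so the difference did not survive correction for the number of probe sets. In normal culture the difference was -0.20 ± 0.32, and the interaction was 1.17 ± 0.45 (unadjusted p = 0.0191, adjusted p = 0.972, limma). Sesn2 stands out here only because its values were seen, and leaving out single arrays or changing the fit kept the difference in H/R cells between 0.85 and 1.15.

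Atf5 showed the opposite arrangement, with all 4 H/R+B12 arrays (8.09 to 8.89) below all 4 H/R arrays (8.93 to 9.09), as in 1.49% of all probe sets. The difference was -0.36 ± 0.20 (limma unadjusted p = 0.0911) and the interaction -0.48 ± 0.28 (limma unadjusted p = 0.107). Atf5 passed the H/R test without B12 and not with it, but the difference between the responses did not itself pass a test.

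For the remaining 8 genes, the differences between H/R+B12 and H/R ran from -0.30 ± 0.26 in Trib3 to 0.39 ± 0.25 in Ppp1r15a. Intervals were narrowest for the bright genes. Atf4 was at -0.03 (interval -0.35 to 0.29), Nupr1 at 0.06 (-0.22 to 0.34) and Asns at -0.16 (-0.47 to 0.15). Intervals that include changes of over 1.5-fold belonged to Chac1 (-0.05, from -0.88 to 0.77), Trib3 (-0.30, from -0.84 to 0.25), Ppp1r15a (0.39, from -0.15 to 0.93) and Cebpb (0.14, from -0.31 to 0.59). In normal culture all 10 differences lay between -0.20 and 0.16.

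How the 10 genes moved with each other was described over the arrays. The mean log2 signal of the 10 genes was 9.27 to 9.62 in the control arrays, 9.26 to 9.46 in control+B12, 10.49 to 10.83 in H/R and 10.46 to 10.96 in H/R+B12. Against the mean of the other 9 standardised genes over the 16 arrays, Chac1 had the highest Pearson correlation (0.96), followed by Ddit3 (0.93), Trib3 (0.91) and Atf4 (0.89), while Ppp1r15a (0.20) and Nupr1 (-0.58) were lowest. The step between control and H/R arrays enters these values. Once group means were removed, the 45 pairs of genes had a median correlation of 0.13 and 29 were positive. The highest were 0.76 for Ddit3 with Ppp1r15a and 0.69 for Trib3 with Chac1, and the lowest was -0.48 for Cebpb with Nupr1. Every group mean of Ppp1r15a was under the lowest median of the negative control features, so its correlations may not reflect the transcript. Arrays share labelling and scaling, so these values carry no test.

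Outside the 10, the genes whose signal followed the mean of the standardised 10 most closely over the 16 arrays were Slc3a2 (Pearson r = 0.956), the heavy chain of several amino acid transporters and itself a target of ATF4, the NF-kB subunit Rela (0.952), the ubiquitin ligase Rnf149 (0.952), the sphingosine phosphatase Sgpp1 (0.951), Tmem87b (0.950), Gpr137b (0.950), the splicing factor Slu7 (0.950) and the chromatin gene Kmt2e (0.949). Their H/R differences without B12 ran from 0.74 ± 0.11 in Slu7 to 1.43 ± 0.13 in Slc3a2. The step between control and H/R arrays enters these correlations too, so a rise after H/R follows from the choice of genes. All 8 H/R arrays lay above all 8 control arrays in 6.18% of all probe sets.

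The rest of the pathway was taken from 5 lists, some of which share genes. They were written from general knowledge but with earlier results of these data known, so their counts are a description and no independent test. Their counts are to be read against all probe sets, of which 8.11% rose and 9.54% fell without B12, and 9.04% and 9.61% with B12 in both arms. Among the 47 other targets of ATF4 that were measured, the limma call was higher for 34 (72.3%) and lower for 3 (6.38%) in H/R against control, with a median log2 difference of 0.95 against -0.02 over all probe sets. With B12 in both arms 36 (76.6%) rose and 3 fell. Other factors may also act on genes of this list, and the part of ATF4 in these counts was not tested. The 6 with the smallest p were Ero1a, which forms disulfide bonds in the endoplasmic reticulum and is also a known hypoxia gene (4.12 ± 0.16), the mitochondrial folate enzyme Mthfd2 (3.58 ± 0.22), the cysteinyl-tRNA synthetase Cars (2.64 ± 0.19), the cationic amino acid transporter Slc7a1 (1.99 ± 0.15), the leucine transporter Slc7a5 (2.93 ± 0.22) and the translation repressor Eif4ebp1 (1.83 ± 0.15). The 3 that fell were the serine synthesis enzyme Phgdh (-0.57 ± 0.14), the autophagy gene Map1lc3b (-0.53 ± 0.13) and Stc2 (-0.41 ± 0.13), which are named here after their values were seen.

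**Figure D4:**
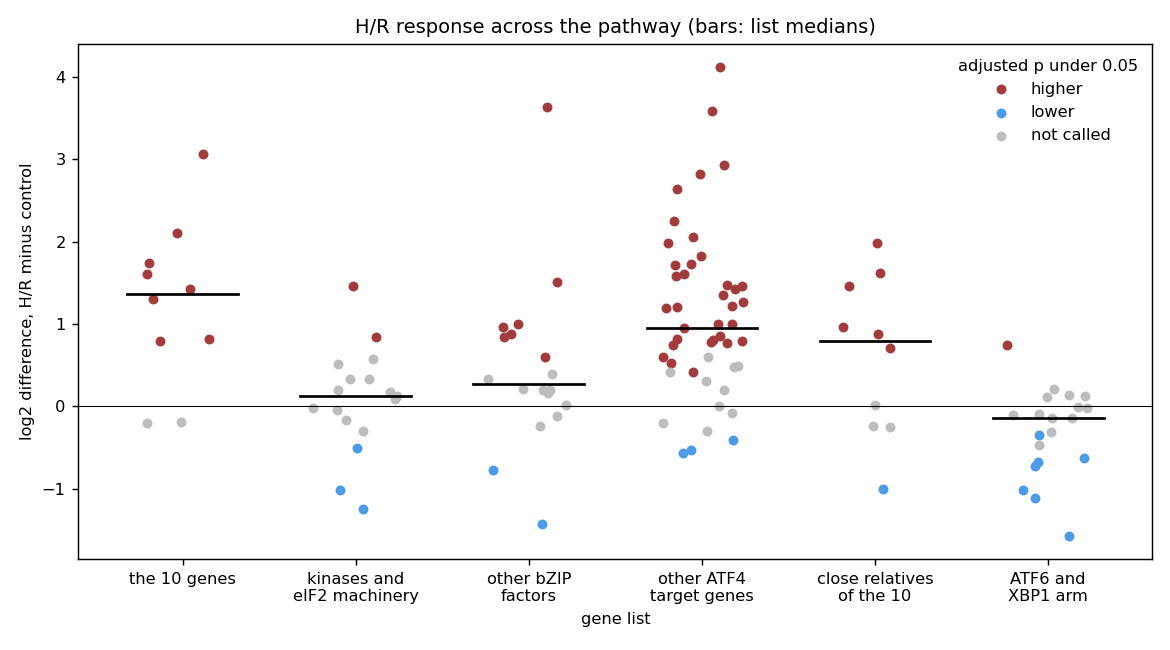
Log2 difference between H/R and control (vertical axis) for the 10 genes and for 5 lists of related genes (horizontal axis), 1 point per gene, coloured by the limma call at an adjusted p under 0.05, with a bar at each median. Medians are 1.36 for the 10 genes, 0.12 for the kinases and eIF2 machinery, 0.27 for other bZIP factors, 0.95 for other ATF4 targets, 0.79 for close relatives and -0.14 for the ATF6 and XBP1 arm.

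Upstream of ATF4, 17 genes were measured, those of the eIF2 kinases, eIF2, its exchange factor and genes that act on or signal to these. Of the 17, 2 (11.8%) rose and 3 (17.6%) fell (median 0.12). The called genes Ppp1r15b, Dnajc3 and Oma1 are of the last kind. With so few genes, the share that rose is near that of all probe sets (8.11%). The share that fell is above theirs (9.54%), and neither share was tested. Ppp1r15b, the constitutive counterpart of Ppp1r15a in the eIF2 phosphatase, rose by 1.47 ± 0.17 (limma adjusted p = 1.22e-05), and Eif2s2, a subunit of eIF2, by 0.84 ± 0.12. Dnajc3, an inhibitor of eIF2 kinases, fell by 1.01 ± 0.17 on the log2 scale, and the mitochondrial protease Oma1, which passes mitochondrial stress to the pathway, fell by 1.25 ± 0.28. The double-stranded RNA kinase Eif2ak2 was at -0.51 ± 0.16 (limma adjusted p = 0.0384), a call that was lost when any of control 1, 3 or 4 or H/R 1, 3 or 4 was left out (adjusted p up to 0.110), with the replicate block (0.0508), in the fit of 2 groups (0.0789) and in centred arrays (0.0999). Eif2b3 of the exchange factor was at 0.57 ± 0.21 (limma adjusted p = 0.0801) and passed without control array 1 (0.0425) or control+B12 array 2 (0.0469), after quantile normalization (0.0428) and with an intensity trend (0.0497). The sensor kinases Eif2ak1 (-0.17 ± 0.12), Eif2ak3 (0.33 ± 0.17) and Eif2ak4 (-0.30 ± 0.18), named after their values were seen, did not pass. With B12 in both arms Eif2ak3 rose by 0.59 ± 0.17 (limma adjusted p = 0.0191). In that comparison 5 of the 17 (29.4%) rose and 2 (11.8%) fell, with Ppp1r15b at 1.42 ± 0.17, and Oma1 at -0.95 ± 0.28 (limma adjusted p = 0.0270), a call that was lost without control+B12 array 1 (0.0780), 2 (0.0623) or 4 (0.0519) or H/R+B12 array 3 (0.0801) or 4 (0.0787).

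Of 18 other bZIP factors, the family of ATF4, 7 (38.9%) rose and 2 (11.1%) fell (median 0.27). Atf3, an immediate stress factor and ATF4 target, rose by 3.64 ± 0.20, the antioxidant factor Nfe2l2 by 1.51 ± 0.19, the endoplasmic reticulum sensor Atf6 by 1.00 ± 0.13, Cebpg, a partner of ATF4, by 0.88 ± 0.15 and Creb3 by 0.85 ± 0.13. Creb3l2 fell by 1.43 ± 0.17 on the log2 scale. With B12 in both arms the counts were again 7 and 2, with Atf3 at 4.34 ± 0.20.

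Among 10 close relatives of the genes, 6 (60%) rose and 1 (10%) fell (median 0.79), also with B12 in both arms. Trib1 (1.99 ± 0.26) and Trib2 (1.62 ± 0.21), pseudokinases related to Trib3, and Cebpd (0.96 ± 0.18), a C/EBP factor beside Cebpb, rose. Sesn1, the sestrin better known as a p53 and FoxO target, fell by 1.01 ± 0.17 on the log2 scale, opposite to Sesn2.

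The ATF6 and XBP1 arm of the unfolded protein response serves endoplasmic reticulum folding and was listed here apart from the ATF4 targets. It had 1 of 20 genes (5%) higher and 7 (35%) lower (median -0.14), and the same counts with B12 in both arms (median -0.34). Sdf2l1, a component of the chaperone complex, fell by 1.57 ± 0.19 on the log2 scale, Creld2 by 1.11 ± 0.19, the chaperone Hyou1 by 0.72 ± 0.14, the disulfide isomerase Pdia6 by 0.68 ± 0.13 and calreticulin Calr by 0.62 ± 0.11. The 1 that rose was Dnajb9, named after its value was seen (0.75 ± 0.15). These counts depend on which list a gene was put in. Dnajc3 stands in this list and in the upstream one. Herpud1, counted with the ATF4 targets and named after its value was seen, rose by 1.21 ± 0.17.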

How the data were processed

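The submitters' processing notes name RMA, Affymetrix Expression Console and Transcriptome Analysis Console, with no version or role. The values the authors deposited are log2 signal per probe set, used as deposited. Of 28846 features, 6640 control features were left out and 22206 probe sets tested, 19572 with 1 gene symbol and 2634 with none here. All 16 arrays were fitted in 4 groups with limma 3.58.1 in R 4.3.3 (lmFit, eBayes, two-sided, Benjamini-Hochberg over 22206 probe sets, threshold 0.05), checked on simulated data. Errors are standard errors of that fit.

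The 10 genes and the lists were chosen with earlier results of these data known. Genes named are the 10, up to 6 per list with the smallest p in H/R against control, and the 8 most correlated with the 10; others are marked. Of the listed genes 13 were not analysed here, having no named probe set. Alternatives were a replicate block, fits of 2 groups, centring on array medians, array weights, quantile normalization, eBayes with a trend and robust variances, the dimmest 25% of probe sets left out, a single probe set for each gene, the other Ddit3 probe set and each array left out in turn. Over all tested probe sets, deviations of same-numbered arrays from their group means correlated at -0.07 to 0.08 between the groups compared, so the numbers were not treated as pairs. Array 1 nevertheless had the highest negative control median in each group (6.10 in control, 6.08 in control+B12, 6.23 in H/R and 6.17 in H/R+B12). The replicate block is the alternative that allows for the number. Promoter windows and gene names come from RefSeq, GRCm38.p6.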

Additional observations from a re-analysis of the deposited data

Results flagged for a closer look

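Among 40 sets of 4 arrays (10 genes in 4 groups), 2 had 1 array flagged as apart from the others, no more than chance gives (about 1 in 20). Both were H/R array 3, with Atf4 at 15.75 (the next highest at 15.52) and Atf5 at 9.09 (the next highest at 8.96). In both genes that array lay further from the control arrays than the other H/R arrays did, and both H/R calls held without it.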

How the results depend on the processing

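In H/R against control, all 241 values of the 10 genes under the alternatives kept their side of the threshold, and 8 genes were called under every alternative. In H/R+B12 against control+B12, 236 of 241 did. The 5 others were Ddit3, as given above, so that 6 or 7 genes were called, and the cause was not tested. In the B12 comparisons and the interaction 0 of the 10 genes were called under any alternative run. Counts over all probe sets with 1 array left out ran from 0 to 1 for H/R+B12 against H/R, for control+B12 against control and for B12 over both conditions. The replicate block gave 3673 probe sets in H/R against control (3919 without it) and 3932 with B12 in both arms (4142 without it). It changed no call of the 10 genes, and 7 of 16 arrays correlated best with an array of their own number, where 4 would if the number played no part (3 of the 12 arrays in other groups carry it). In arrays centred on their medians 2133 probe sets were higher and 1646 lower in H/R against control, against 1801 and 2118, and 2417 and 1605 with B12 in both arms, against 2007 and 2135. The 8 and 7 calls among the 10 genes were the same. Trib3, Chac1 and Sesn2 in control, and Ppp1r15a throughout, lay near the medians of the negative control features, which limits the precision of their differences. Every group mean of Atf5, Trib3, Sesn2 and Chac1 was also under the 95th percentile of those features, 10.06 to 10.56 by array. The control means of Ddit3 (10.18) and Cebpb (10.39) lay within that range, so the sizes of these differences are uncertain as well.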
